A study of Mus musculus with 9 samples.

Results

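The squamocolumnar junction of the mouse stomach was compared with the glandular corpus beside it. The comparison rests on 6 of the 9 arrays of the study, the 3 of the junction and the 3 of the corpus, and on all probe sets that carry a single gene symbol. Of 45101 probe sets, 34945 did so, and they gave 13088 genes above the level set for measurement, each represented by 1 probe set. Both zones came from the same healthy, untreated C57Bl/6 females aged 3 months, with no transgene and no treatment in any group. A stripe 600 to 800 µm wide was cut from the corpus, the next one along the limiting ridge, where the glandular lining meets the squamous forestomach, and a further one from the forestomach. Stripes of 3 mice were pooled for each array, so the 9 mice gave 3 series (1 to 3), and the corpus and junction arrays of a series share their mice. The p-values therefore measure the spread between 3 pools and not that between single mice.

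The corpus is lined by a single layer of columnar cells that dips into glands of mucous, parietal, chief, endocrine and tuft cells. Parietal cells secrete acid through a proton pump and chief cells secrete pepsinogen. The forestomach has a stratified squamous epithelium, in which basal cells bound to the basement membrane divide, move up and end as flattened, cross-linked, cornified cells. At the squamocolumnar junction both linings abut, and a stripe across it holds pieces of both as well as any cells that belong to the border itself. In pooled tissue, fewer cells of a type and less RNA per cell cannot be told apart, and a higher signal likewise cannot be placed in a cell.

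Signals are MAS5 values on a linear scale, and differences are junction minus corpus on the scale log2(signal + 9.8), on which a fold understates the change of dim genes. Median signals of the 6 arrays lay between 47.9 and 57.1. Taken over genes, which do not count as replicates, arrays of 1 zone correlated at r of 0.971 to 0.975 and arrays of unlike zones at 0.93 to 0.951. As a sign of RNA quality, the ratio of 3′ to 5′ control probes for actin had a mean of 1.65 (SD 0.0794, n = 3) in corpus and 1.52 (SD 0.0377) in junction arrays, and the Gapdh ratio 0.723 (SD 0.0286) and 0.759 (SD 0.0043). The labels call the tissue epithelium, but the muscle actin gene Acta2 had a signal of 9873, 12222 and 8612 in the corpus and 10790.2, 10704 and 10302 in the junction, so the stripes also held deeper layers. Defining genes of gastric glands were bright in both zones. The corpus stripes also carried squamous transcripts to an unequal extent, with the summed signal of the late cornified envelope list from 1250.0 to 2582 over the 3 corpus arrays, against 65995 to 99305 over the 3 junction arrays. Corpus array 2 was the lowest of its zone for such squamous genes as Krt14, Krt5, Krt6b, Klk7 and Rptn, and the part of this spread in the differences below was not tested.

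The junction gained large signals and lost few. By limma with Benjamini-Hochberg adjustment, 1602 genes were higher in the junction (12.2% of those measured) and 1578 lower (12.1%), 3180 in all (24.3%). The rises were far larger than the falls. By 2-fold or more 710 genes rose (5.42%) and 196 fell (1.5%), by 4-fold or more 340 rose and 6 fell, and by 16-fold or more 126 rose and 0 fell. The largest fall was 5.93-fold, of Gm12888, a predicted gene that the rule for named genes passes over. The median fold was 1.87 among the genes called higher and 1.51 among those called lower, and the median difference of all genes was -0.055. Of the 710 rises, 201 had all 3 corpus arrays below the level used as filter (the 40th percentile of each array), and their folds are given as bounds against that level. Of the 196 falls, 27 had all 3 junction arrays below it. A bound compares deposited signals with that level and is not a floor for the fitted fold. Under other settings the fitted fold fell short of the bound for more genes than those for which this is stated below. All 3 junction arrays lay above all 3 corpus arrays for 2651 genes (20.3%) and below them for 3229 (24.7%). Every gene named here as higher or lower is among those, so the groups do not overlap for any of them. For the largest rises and falls this was a condition of being named. Without overlap a difference must have the same sign in all 3 series, and all 1602 rises and 1578 falls had this. Neither property is thus added support for the named genes. The split of calls depends on where an array is centred: with arrays centred on their median, which moves the median of all genes by -0.067, 1408 genes were higher and 2224 lower, so that 38.8% of calls were higher instead of 50.4%. The count of falls was 1617 without junction array 1 but 757, 870 and 972 without corpus array 1, 2 or 3, 794 and 763 without junction array 2 or 3, and 809, 208 and 295 without both arrays of series 1, 2 or 3. The count of rises was 692 and 758 without series 2 or 3.

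**Figure D1:**
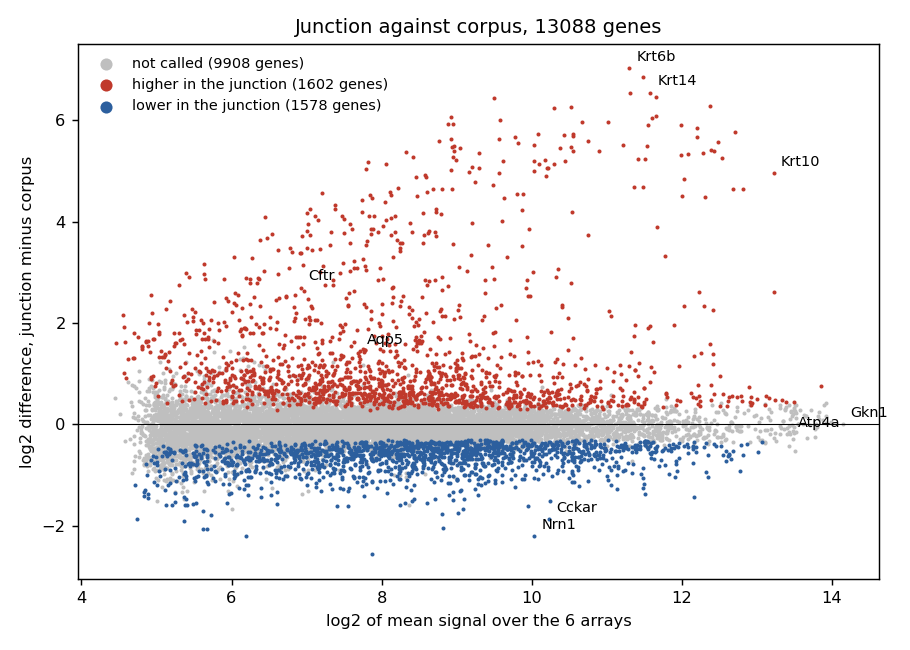
Log2 difference (junction minus corpus) of each of 13088 genes against the log2 of its mean signal over the 6 arrays, with genes called higher in red (1602), lower in blue (1578) and not called in grey (9908). Rises reach a log2 difference of 7.03 (Krt6b), and the fall labelled Nrn1 lies at -2.20.

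Squamous genes rose most. Of the lists of squamous biology, which together had 195 measured genes, 146 genes were higher and 3 lower, with a median difference of 2.62. In the basal layer list 13 of 21 were higher and 1 lower, with a median log2 difference of 0.94. The member that fell, Dst, a linker of hemidesmosomes, was 1.34-fold lower by its brightest probe set, but 2 of its other 3 probe sets were called higher, and with all of them averaged Dst was 3.92-fold higher. Keratin 14 (Krt14), with keratin 5 the filament of dividing basal cells, had a signal of 66, 32 and 73.7 in the corpus and 5109, 5866 and 7174 in the junction. Its rise was 93.5-fold (log2 difference 6.55 ± 0.28, SE, adjusted p = 3.58e-05). Keratin 5 (Krt5) had a signal of 201, 78.1 and 170.0 in the corpus and 4705, 5861 and 6392 in the junction, 37.6-fold higher (adjusted p = 1.16e-04). The lowest junction array lay far above the highest corpus array for both keratins. Trp63, which encodes p63, the transcription factor that keeps squamous progenitors, had a signal of 28.6, 26.8 and 17.8 in the corpus and 887, 1154 and 1419 in the junction and was at least 32.7-fold higher (adjusted p = 3.51e-05). Keratin 15 (Krt15), another keratin of basal cells, was 49.4-fold higher, and its corpus arrays spread widely, at 23.9, 4.9 and 41.6. Collagen XVII (Col17a1), which ties basal cells to the basement membrane, was at least 24.3-fold higher. The laminin chain gene Lama3 (1.94-fold) and the integrin gene Itgb4 (1.56-fold), of the same attachment, rose less, as did podoplanin (Pdpn, 1.92-fold), a membrane glycoprotein. The call of Itgb4 was lost without series 2 or 3 (adjusted p over its alternatives from 3.92e-04 to 0.0661). Dst lost its call without a filter, without corpus array 1, 2 or 3 or junction array 2 or 3 or series 1, 2 or 3 (adjusted p over its 20 alternatives from 6.43e-05 to 0.21). The lowest of these values belongs to the rise of Dst when probe sets were averaged, not to its fall. Fitted folds fell short of the bounds given, at 21.1-fold with a pseudocount of 30.9 and 10.7-fold when probe sets were averaged for Trp63. For Col17a1 the fitted fold was 22-fold with a pseudocount of 30.9. Krt14 moved by more than 1.5 times in size, to 37-fold when probe sets were averaged, Krt15 78.3-fold with a pseudocount of 1, 28.2-fold with a pseudocount of 30.9 and 32.9-fold without series 2.

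Keratins of the upper layers and of stressed epithelium rose as strongly. In their list 13 of 16 were higher and 0 lower, with a median log2 difference of 3.86. Krt10 and Krt1, the pair of cornifying suprabasal cells, were bright: Krt10 had a signal of 990.3, 337 and 601 in the corpus and 17209.5, 17650.5 and 20618 in the junction, 30.9-fold higher (adjusted p = 1.93e-04), and Krt1 was 25.1-fold higher. Krt13 and Krt4, the pair of moist stratified linings such as the oesophagus, were 38.2-fold and 40.9-fold higher. Krt6b, a keratin of wounded and fast-growing squamous epithelium, had a signal of 45.7, 4.4 and 60 in the corpus and 4302, 4614 and 6081 in the junction, 130.2-fold higher (adjusted p = 3.43e-04). Krt6a, of the same kind, had a signal of 100, 53.6 and 56.9 in the corpus and 1376, 2237 and 1855 in the junction and was 23.2-fold higher. Krt17, also induced by injury, had a signal of 32.9, 6.0 and 8.6 in the corpus and 716, 1168 and 1056 in the junction and was at least 27.7-fold higher. The forestomach arrays, which took no part in this test, stood at 5571, 6769 and 5719 for Krt14 and 17928, 18026 and 18211 for Krt10. For the stress keratins they stood at 284, 762 and 489.7 (Krt6b), 70.5, 139.6 and 141 (Krt6a) and 92.9, 214 and 129 (Krt17). The forestomach was thus near the junction for the first pair, and every junction array exceeded every forestomach array for the stress keratins. Krt6b moved by more than 1.5 times in size, to 199-fold with a pseudocount of 1, 79.4-fold with a pseudocount of 30.9, 79.6-fold without corpus array 2 and 82.4-fold without series 2.

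**Figure D2:**
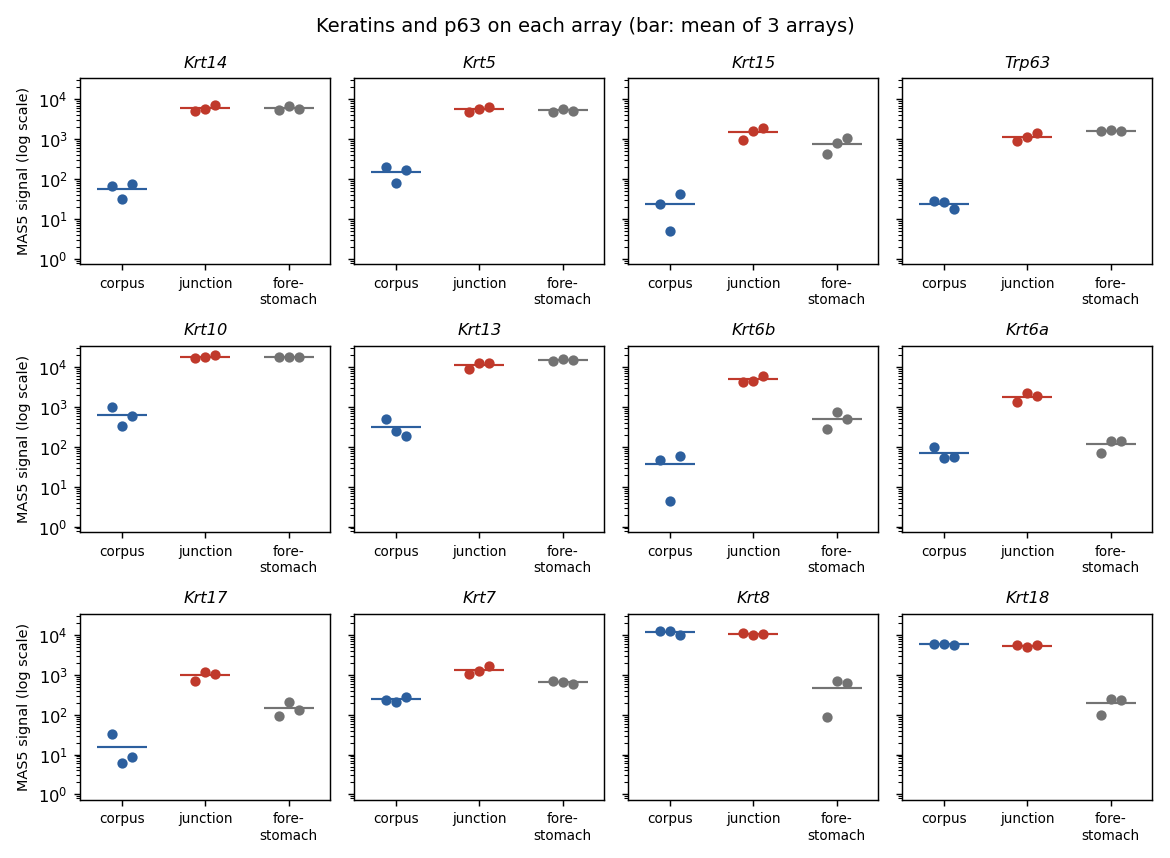
MAS5 signal (log axis) of Krt14, Krt5, Krt15, Trp63, Krt10, Krt13, Krt6b, Krt6a, Krt17, Krt7, Krt8 and Krt18 on the 3 corpus, 3 junction and 3 forestomach arrays, each point an array and each bar the mean of 3. Krt6b, Krt6a and Krt17 are highest in the junction, and Krt8 and Krt18 lie at like levels in corpus and junction.

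Cornified envelope genes rose nearly as a block. Among late cornified envelope proteins, small proteins cross-linked into the dead cell's shell, 16 of 16 were higher and 0 lower, with a median log2 difference of 5.68. Lce3c had a signal of 91.7, 24.7 and 21.4 in the corpus and 3876, 5914 and 7249 in the junction, 115-fold higher (adjusted p = 1.65e-04). Lce3a was 93.3-fold, Lce1c 87.7-fold and Lce1b 62.1-fold higher. Probe sets of such close paralogs can bind each other's transcripts, so single members of the Lce and Sprr families are uncertain. Of the envelope scaffolds and fused S100 proteins, 25 of 26 were higher and 0 lower, with a median log2 difference of 4.76. Hornerin (Hrnr) had a signal of 30.2, 16.9 and 20.6 in the corpus and 1565, 2701 and 3225 in the junction and was at least 69-fold higher (adjusted p = 4.70e-05). Repetin (Rptn), also of the fused S100 family, had a signal of 262, 111 and 167 in the corpus and 7577, 9858 and 10145 in the junction, 50.8-fold higher (adjusted p = 6.52e-05). For both, each junction array was many times above each corpus array, and junction array 1 was the lowest of its zone. Involucrin (Ivl), a first scaffold of the envelope, was dimmer and at least 7.04-fold higher. Among small proline-rich proteins, 6 of 8 were higher and 0 lower, with a median log2 difference of 3.53, and Sprr3, that of internal squamous linings, was 47.2-fold higher. Fitted folds fell short of the bounds given, at 45.5-fold with a pseudocount of 30.9 for Hrnr. Lce3c moved by more than 1.5 times in size, to 199.9-fold without series 1.

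Many of these genes are neighbours. In the order of the GRCm38.p6 gene table, 13 runs of at least 4 neighbouring measured genes were all called higher and 5 all lower. The longest held 26 genes of chromosome 3, from Sprr1b to S100a10, the epidermal differentiation complex, with differences from 1.32 to 6.85 and a median of 5.5. Runs of 7 genes each covered serpins on chromosome 1 (Serpinb5 to Serpinb8, median 4.18), the interleukin cluster on chromosome 2 from Il1f8 to Psd4 (3.72) and kallikreins on chromosome 7 (Klk13 to Klk7, 3.97). A run of 6 genes on chromosome 16 held Trp63 and Cldn1. On chromosome 15, runs of 4 held the keratins from Krt75 to Krt5 (4.89) and the homeobox genes from Hoxc8 to Hoxc4 (2.94). The longest run of falls had 5 genes, from Rbp4 to Plce1 on chromosome 19 (median -0.59). These runs are a description, and many of their genes are paralogs that share sequence.

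**Figure D3:**
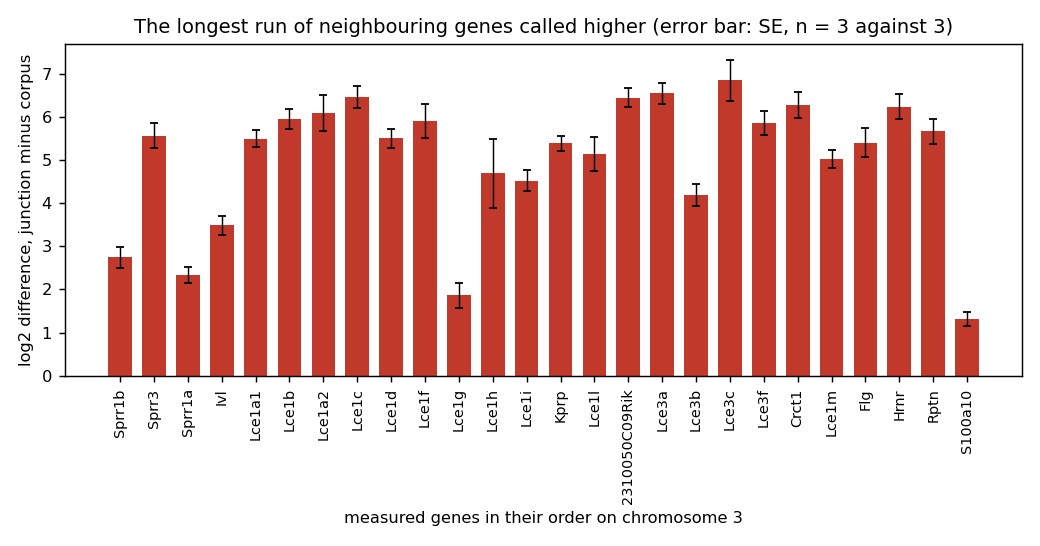
Log2 difference (junction minus corpus, bar) with its SE (error bar, n = 3 arrays against 3) of the 26 measured genes from Sprr1b to S100a10 in their order on chromosome 3. All 26 rose, S100a10 the least (1.32) and Lce3c the most (6.85).

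Promoters of the largest rises and falls were read for short motifs. The windows below run from 250 bases before to 50 after the start of transcription (RefSeq, GRCm38.p6, gene strand). They show the rises of Rptn (chr3:93393449-93393748, plus strand), Hrnr (chr3:93319499-93319798, plus strand) and Aox4 (chr1:58210147-58210446, plus strand), and the fall of Gper1 (chr5:139422929-139423228, plus strand). Capitals mark TATAAA, the core of the TATA box, and TGANTCA, the letters bound by AP-1 factors.
Rptn: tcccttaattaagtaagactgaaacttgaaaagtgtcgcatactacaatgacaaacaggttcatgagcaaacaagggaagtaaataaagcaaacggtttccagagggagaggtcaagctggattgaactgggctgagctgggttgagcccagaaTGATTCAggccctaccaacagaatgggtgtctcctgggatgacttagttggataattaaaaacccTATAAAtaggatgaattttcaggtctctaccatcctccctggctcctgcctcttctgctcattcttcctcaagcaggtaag
Hrnr: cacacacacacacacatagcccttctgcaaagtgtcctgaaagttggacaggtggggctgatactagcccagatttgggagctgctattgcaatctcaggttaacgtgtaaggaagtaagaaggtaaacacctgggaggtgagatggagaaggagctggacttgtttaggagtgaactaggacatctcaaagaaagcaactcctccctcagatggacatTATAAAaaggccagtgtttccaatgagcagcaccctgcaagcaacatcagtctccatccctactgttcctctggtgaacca
Aox4: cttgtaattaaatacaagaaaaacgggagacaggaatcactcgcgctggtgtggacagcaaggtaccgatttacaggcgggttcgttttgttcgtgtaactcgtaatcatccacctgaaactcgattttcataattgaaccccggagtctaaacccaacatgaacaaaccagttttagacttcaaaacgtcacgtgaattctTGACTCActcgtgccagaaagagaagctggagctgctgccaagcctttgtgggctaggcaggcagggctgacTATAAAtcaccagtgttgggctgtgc
Gper1: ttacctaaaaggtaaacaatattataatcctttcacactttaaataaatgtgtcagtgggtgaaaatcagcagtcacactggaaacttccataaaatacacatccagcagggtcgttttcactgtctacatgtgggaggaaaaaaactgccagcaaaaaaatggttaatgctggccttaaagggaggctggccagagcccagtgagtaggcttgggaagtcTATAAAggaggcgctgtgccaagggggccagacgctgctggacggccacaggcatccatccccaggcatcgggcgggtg
Counted from the start site, Rptn had TATAAA at -31 and TGATTCA at -96, Hrnr TATAAA at -31, and Aox4 TGACTCA at -48 and TATAAA at 25. Gper1 had TATAAA at -29. Of the 25 largest rises named, 17 had a promoter in the table, 3 of them with TGANTCA and 5 with TATAAA. Of the 25 largest falls, 17 had one, 0 with TGANTCA and 2 with TATAAA. In the genes not shown above, TATAAA was at 1 in S100a9, at -220 and -201 in the windows of Serpinb12 and at 36 in Cpb1, a fall. The letters were thus counted at any distance from the start site. On either strand, TGANTCA was in 5.6% of the 13472 promoters of measured genes, in 13.3% of the 660 of genes higher by 2-fold or more, in 20.1% of the 179 of genes higher by 8-fold or more and in 5.56% of the 216 of genes lower by 2-fold or more. TATAAA was in 8.05%, 16.1%, 20.7% and 16.7% of the same sets. The Sp-type letters GGGCGG were in 59.5%, 43.3%, 26.8% and 47.7%. The GATA letters AGATAA were in 6.78%, 10.5%, 13.4% and 10.6%, and CAAAG, part of the HNF4 site, in 47.3%, 50.3%, 53.1% and 58.8%. These shares describe letters in a window, several windows can belong to 1 gene, and no factor's binding was measured.

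Proteases that loosen cornified cells rose together with their inhibitors. In that list 27 of 30 were higher and 0 lower, with a median log2 difference of 3.87. The kallikrein gene Klk7, which cuts the links between cornified cells, had a signal of 61.1, 4.1 and 28.1 in the corpus and 1254, 1705 and 2217 in the junction, 50.6-fold higher (adjusted p = 8.93e-04). Spink5, its inhibitor, had a signal of 59.1, 20.4 and 52.8 in the corpus and 2455, 3601 and 3571 in the junction, 62.5-fold higher (adjusted p = 7.54e-05). The serpin gene Serpinb12 was 65.8-fold, cystatin E/M (Cst6) 47-fold and the keratinocyte caspase gene Casp14 at least 26.1-fold higher. Close paralogs among kallikreins and serpins may share signal. Lipid enzymes of the squamous barrier were higher in 15 of 23 and lower in 1 (median 1.91). Elovl4, which makes ultra-long fatty acids for barrier ceramides, was 36.4-fold higher, the lipoxygenase gene Alox12b at least 12.3-fold and the lipase gene Lipm at least 27.3-fold. The member that fell, Fa2h, a fatty acid hydroxylase, was 1.58-fold lower. Of 5 gasdermins, pore-forming proteins, 2 rose: Gsdma at least 27.6-fold and Gsdmc2 3.15-fold. Gsdmc2 had a signal of 135, 203 and 150.4 in the corpus and 508, 633 and 454 in the junction, beside 69.2, 79 and 69.6 in the forestomach, lowest on all 3 forestomach arrays. The call of Fa2h was lost without series 2 (adjusted p over its alternatives from 2.01e-04 to 0.0901). Fitted folds fell short of the bounds given, at 7.33-fold when probe sets were averaged for Casp14, 13.7-fold when probe sets were averaged for Gsdma. Cst6 moved by more than 1.5 times in size, to 30.3-fold with a pseudocount of 30.9, Klk7 80.2-fold with a pseudocount of 1, 29.8-fold with a pseudocount of 30.9, 32.6-fold without corpus array 2, 85.2-fold without series 1 and 32.4-fold without series 2, Serpinb12 23.6-fold when probe sets were averaged.

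Cell contacts changed in make-up. Of desmosome and cadherin genes, 9 of 18 were higher and 1 lower, with a median log2 difference of 0.86. Plakophilin 1 (Pkp1), the desmosomal plaque protein of squamous cells, had a signal of 26.3, 46.6 and 16.4 in the corpus and 2694, 2534 and 3511 in the junction, 76.8-fold higher (adjusted p = 4.70e-05), while Pkp2, that of simple epithelia, fell 1.4-fold (adjusted p = 0.0114). The desmosomal cadherins Dsc1 (51.8-fold), Dsc3 (at least 21.4-fold) and Dsg1b (at least 11.8-fold) rose. Among connexins, the gap junction proteins, 3 of 6 were higher and 0 lower, with a median log2 difference of 1.31. Connexin 26 (Gjb2) was 36.5-fold and connexin 43 (Gja1) 5.04-fold higher, the latter from a signal of 1379, 1434 and 1315 in the corpus and 6536, 7006 and 7388 in the junction. Among claudins and other tight junction genes 6 of 22 were higher and 2 lower, with a median log2 difference of -0.050, close to the median of all genes. Cldn1, the barrier claudin of skin, was at least 8.44-fold higher and Cldn8 2.49-fold lower. Cldn8 lost its call without series 2, Pkp2 lost its call without series 2 or 3 (adjusted p over the alternatives of these genes from 1.69e-04 to 0.117). Fitted folds fell short of the bounds given. They were 7.92-fold for Dsc3 and 6.34-fold for Cldn1 when probe sets were averaged, and 10.9-fold for Dsg1b with a pseudocount of 30.9. Pkp1 moved by more than 1.5 times in size, to 49-fold with a pseudocount of 30.9.

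Squamous transcription factors were higher and several gastric ones lower. Of squamous factors, 19 of 29 were higher and 0 lower, with a median log2 difference of 1.38. Besides Trp63, Grhl3, a driver of barrier formation, was 16.4-fold higher, Bcl11b at least 6.97-fold and the homeodomain gene Hopx 25.7-fold. Pitx1, a homeobox factor, had a signal of 238, 367 and 259 in the corpus and 1318, 1922 and 1910.3 in the junction and was 5.81-fold higher, and Sox2, a foregut progenitor factor, had 363, 246 and 332 in the corpus and 962, 1049 and 1403 in the junction, 3.55-fold higher (adjusted p = 0.00124). Of gastric and foregut factors, 1 of 24 were higher and 9 lower, with a median log2 difference of -0.34. Gata4 had a signal of 1067, 974 and 951 in the corpus and 567, 436 and 386 in the junction, 2.15-fold lower (adjusted p = 0.00353). Gata6, its relative in gastric epithelium, had 1800.4, 1797 and 1764 in the corpus and 1028, 923 and 889 in the junction, 1.88-fold lower (adjusted p = 0.00113), the most even of these falls. Foxa2 (2.01-fold), Esrrg, a nuclear receptor of parietal cells (2.19-fold), and Hnf4a (1.41-fold) also fell. Among homeobox genes of the Hox clusters and their cofactors 5 of 15 were higher and 0 lower, with a median log2 difference of 0.15, with Hoxc8 at least 15.2-fold, Hoxc5 at least 11.9-fold and Hoxc4 5.04-fold higher. Foxa2 lost its call in the fit over 9 arrays or without series 2 or 3, Gata4 lost its call without series 2, Esrrg lost its call without series 3 (adjusted p over the alternatives of these genes from 5.47e-05 to 0.114). Hnf4a lost its call in the fit over 9 arrays, without junction array 3 or series 1, 2 or 3 (adjusted p over its 20 alternatives from 0.00119 to 0.447). Fitted folds fell short of the bounds given, at 7.71-fold with a pseudocount of 30.9 for Hoxc5. Grhl3 moved by more than 1.5 times in size, to 10.1-fold with a pseudocount of 30.9.

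The main secretory products of the glands were not called by the fit used here, but some were called lower under other settings. Atp4a, the catalytic subunit of the gastric proton pump, had a signal of 13488, 12978 and 9337 in the corpus and 10352, 9754 and 10999.9 in the junction (log2 difference -0.19, 95% interval -0.56 to 0.19). Pepsinogen C (Pgc), the main zymogen, had 14109, 13939.9 and 9629.5 in the corpus and 11532, 9555 and 9603 in the junction (-0.28, 95% interval -0.70 to 0.14). Gastrokine 1 (Gkn1), of the surface mucous cells, had 22794, 17861 and 13973 in the corpus and 18009.8, 15933 and 19869.6 in the junction (0.001, 95% interval -0.45 to 0.45). In each case the groups overlapped, and corpus array 3 was the lowest of its zone. The intervals of Atp4b, Cblif (intrinsic factor), Pga5, Chia1 (acidic chitinase), Tff1, Tff2, Gkn2, Krt8, Krt18 and Krt19 also included 0, the widest from -0.28 to 0.78 (Tff1). A missing call does not show equal levels. Muc5ac, the surface mucin, had 14465, 13485 and 10239 in the corpus and 10381, 8976 and 8721 in the junction. Its groups also overlapped, as junction array 1 lay above corpus array 3. The interval of Muc5ac, from -0.80 to -0.064, excluded 0, but the gene did not pass over all genes (limma, adjusted p = 0.0861). The same held for Ghrl, the gene of the hormone ghrelin (-0.35, 95% interval -0.70 to -0.007, adjusted p = 0.123). After quantile normalization Atp4a, Atp4b, Cblif, Ghrl, Krt8 and Muc5ac were called lower, by 1.27-fold to 1.53-fold. Ghrl was also called with the trend and robust options. Muc5ac was also called after median centring, with the trend and robust options and without corpus array 3. Over all alternatives of these 6 genes the adjusted p ranged from 0.0119 to 0.884.

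**Figure D4:**
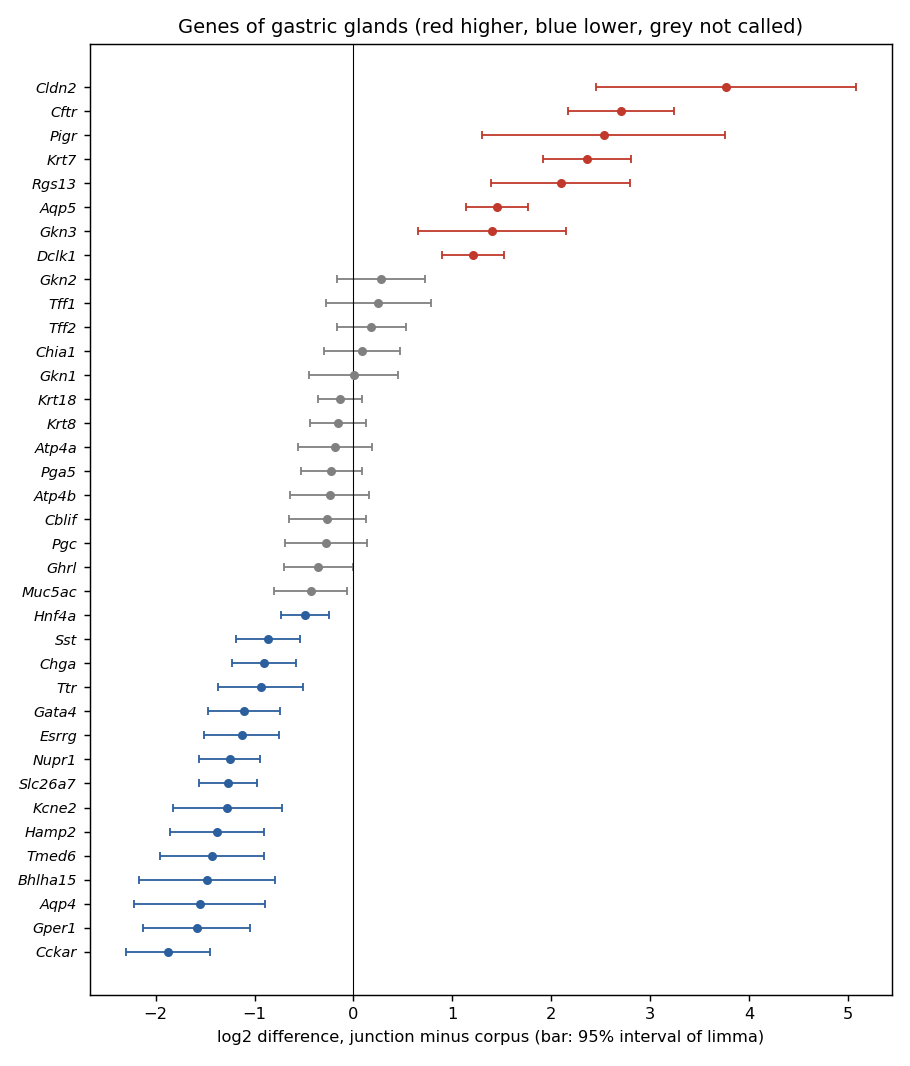
Log2 difference (junction minus corpus, point) with its 95% interval from limma (bar) for 37 genes of gastric glands, each from 3 arrays against 3, red called higher, blue called lower, grey not called. Grey genes lie near 0, Cckar has the lowest value (-1.87) and Cldn2 the highest (3.77).

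Other genes of the same cells fell, by less than 4-fold. In the lists of parietal, chief and mucous cell genes together, the falls differed with brightness. Of genes with a mean corpus signal from 5000 up, 3 of 24 were lower and 0 higher (median -0.16). From 500 to 5000, 19 of 30 were lower and 2 higher (median -0.55). Below 500, 11 of 22 were lower and 3 higher (median -0.73). The cause of this difference was not tested. Of parietal cell genes 1 of 32 were higher and 20 lower, with a median log2 difference of -0.75. The potassium channel subunit gene Kcne2, needed for acid secretion, had a signal of 3552, 2888 and 2992 in the corpus and 1843, 982 and 1181 in the junction, 2.42-fold lower (adjusted p = 0.010). Slc26a7, an anion exchanger of parietal cells, had 859, 837 and 883 in the corpus and 412, 315 and 331 in the junction, 2.41-fold lower (adjusted p = 7.79e-04). Kcnj15 and Kcnj16, further potassium channel genes, were 2.28-fold and 2.11-fold lower, the water channel gene Aqp4 2.93-fold and the gastrin receptor gene Cckbr 1.94-fold. The single riser on that list, Tmem40, was 23.3-fold higher and had a forestomach signal of 3617, 3499 and 3579.8. Cckar, a receptor for cholecystokinin, had 1817, 1898 and 1955 in the corpus and 665, 486 and 407 in the junction, 3.66-fold lower (adjusted p = 7.33e-04), the largest fall among the genes of this list. Chief cell genes were lower in 5 of 16 and higher in 2 (median -0.24). Bhlha15 (Mist1), the factor that matures zymogen cells, had 985, 681 and 745 in the corpus and 442, 226 and 214 in the junction, 2.79-fold lower (adjusted p = 0.013). Gper1, a G protein-coupled estrogen receptor gene, was 3.0-fold lower, Nupr1 2.38-fold and Rnase1 2.2-fold. The risers were Ctsl (2.19-fold), a lysosomal protease, and Dpp4 (2.25-fold). Bhlha15 lost its call without junction array 2 or series 2 or 3, Aqp4, Dpp4, Gper1 and Kcne2 lost their calls without series 2 or 3, Cckbr lost its call without series 3 (adjusted p over the alternatives of these genes from 1.34e-04 to 0.0988).

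Of surface and neck mucous cell genes, 2 of 29 were higher and 8 lower, with a median log2 difference of -0.28. Muc1, a membrane mucin, was 1.33-fold lower and Capn8, a stomach calpain, 1.94-fold. Of enteroendocrine genes, 3 of 25 were higher and 12 lower, with a median log2 difference of -0.58. Somatostatin (Sst), which restrains acid secretion, had a signal of 3812, 3799 and 3393 in the corpus and 2378, 1761 and 1933 in the junction, 1.82-fold lower (adjusted p = 0.00563). Chromogranin A (Chga), of hormone granules, was 1.87-fold lower. Slc18a2, which loads monoamines into vesicles, had 319, 365 and 362 in the corpus and 183, 140.1 and 143 in the junction, 2.18-fold lower (adjusted p = 0.00178), and Hdc, which makes histamine, was 1.78-fold lower. The list's rises were the peptide genes Nmu (at least 18.8-fold), with 2271, 2309 and 2386 in the forestomach, and Cck (at least 1.81-fold), with 24.7, 2.2 and 8.8 in the forestomach, besides the processing enzyme gene Cpe (1.5-fold). Nmu was thus high on the forestomach arrays and Cck was not. Of secreted carriers and hormones of the corpus, 1 of 14 were higher and 6 lower, with a median log2 difference of -0.56. The hepcidin gene Hamp2 had 4333, 4504 and 3761 in the corpus and 2184, 1390.3 and 1349 in the junction, 2.61-fold lower (adjusted p = 0.00422). Transthyretin (Ttr) was 1.92-fold lower and Apoa4 1.99-fold. Capn8 lost its call in the fit over 9 arrays, Ttr lost its call in the fit over 9 arrays or without series 2 or 3, Cpe lost its call without series 1, 2 or 3, Apoa4 and Hamp2 lost their calls without series 2, Chga, Hdc and Sst lost their calls without series 2 or 3 (adjusted p over the alternatives of these genes from 4.41e-05 to 0.294). Muc1 lost its call in the fit over 9 arrays, without a filter, without corpus array 1, 2 or 3 or junction array 2 or 3 or series 1, 2 or 3 (adjusted p over its 20 alternatives from 0.00401 to 0.657).

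Among other genes with large falls, roles were varied. Neuritin (Nrn1), a membrane-anchored neural protein, had a signal of 1816, 1653 and 1678 in the corpus and 495, 319.9 and 308 in the junction, 4.59-fold lower (adjusted p = 4.20e-04). Blm, a DNA helicase gene, had 754, 752 and 670.5 in the corpus and 242, 160.4 and 120.5 in the junction, 4.14-fold lower. For both, the highest junction array lay far below the lowest corpus array. Derl3, of the endoplasmic reticulum's degradation path, was 3.36-fold lower and the protease inhibitor gene Mug1 3.18-fold. The glycosyltransferase gene B4galnt2 was 3.41-fold lower and Tent5c, a poly(A) polymerase gene, 3.05-fold. The monocarboxylate transporter gene Slc5a8, at 18.8, 22.4 and 1.9 in the junction, was at least 2.66-fold lower, Slc27a2, of fatty acid uptake, at least 2.79-fold and Cyp2u1 at least 1.48-fold. Slc5a8 lost its call without series 1 or 2, B4galnt2 lost its call without series 2, Tent5c lost its call without series 2 or 3 (adjusted p over the alternatives of these genes from 2.93e-04 to 0.0613).

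A set of genes listed as glandular rose at the junction. Of genes known from Cftr-bearing ducts, 13 of 24 were higher and 5 lower, with a median log2 difference of 0.66. Cftr, the chloride channel of fluid-secreting ducts, had a signal of 24, 16.6 and 36.5 in the corpus and 178, 219 and 253 in the junction, 6.5-fold higher (adjusted p = 3.92e-04), beside 12, 25 and 18.1 in the forestomach. The pore-forming claudin gene Cldn2 had 34.1, 3.0 and 46.9 in the corpus and 313, 407 and 586 in the junction, 13.6-fold higher (adjusted p = 0.00442), beside 3.2, 24.9 and 29.3 in the forestomach. For both genes the junction exceeded each array of either neighbour. Keratin 7 (Krt7), of ducts and transitional epithelia, had 235, 213 and 282 in the corpus and 1034, 1246 and 1625 in the junction, 5.12-fold higher (adjusted p = 3.15e-04), beside 685, 676 and 603 in the forestomach. For Krt7 each forestomach array thus lay above each corpus array. Pigr, which carries immunoglobulin A across epithelia, had 285, 118 and 611 in the corpus and 1591, 1548 and 1777 in the junction and was 5.76-fold higher (adjusted p = 0.0151). The membrane mucin gene Muc4 had 89.1, 80.1 and 112 in the corpus and 444, 606 and 496 in the junction, 5.08-fold higher, beside 12.8, 26.3 and 18.4 in the forestomach. Corpus array 2 was the lowest of its zone for Cftr, Cldn2, Pigr and Muc4, as it was for Krt14 and Krt5. Members that fell were Car4 (2.03-fold), Slc26a6 (1.87-fold), Slc4a4 (1.46-fold) and the secretin receptor gene Sctr (1.56-fold), which act in bicarbonate transport or its control, and Dcdc2a (1.85-fold). Pigr lost its call without junction array 3 or series 1 or 2, Sctr lost its call without series 1 or 2, Slc26a6 lost its call without series 2 or 3 (adjusted p over the alternatives of these genes from 6.96e-04 to 0.10). Car4 lost its call without corpus array 1 or 2 or junction array 2 or series 2 or 3 (adjusted p over its 20 alternatives from 0.00435 to 0.135). Dcdc2a lost its call in the fit over 9 arrays, without corpus array 1, 2 or 3 or junction array 3 or series 1, 2 or 3 (adjusted p over its 19 alternatives from 0.0135 to 0.107). Slc4a4 lost its call without corpus array 2 or junction array 3 or series 2 or 3 (adjusted p over its 20 alternatives from 0.00406 to 0.128). Cldn2 moved by more than 1.5 times in size, to 22.4-fold with a pseudocount of 1, 8.15-fold with a pseudocount of 30.9, 6.12-fold when probe sets were averaged, 8.64-fold without corpus array 2 and 8.79-fold without series 2.

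Further genes with less signal in the forestomach than in the junction rose as well. Gkn3, a gastrokine of mucous neck cells, had a signal of 3441, 1553 and 3364 in the corpus and 7164, 5842 and 7933 in the junction, 2.64-fold higher (adjusted p = 0.0209). Aqp5, a water channel of gastric mucous cells, had 111, 92.2 and 120.0 in the corpus and 280.2, 346 and 308 in the junction, 2.73-fold higher (adjusted p = 5.78e-04). Cela1, an elastase gene, had 716, 654 and 897 in the corpus and 2034, 1902 and 2380.2 in the junction, 2.78-fold higher, the only rise on the list of pancreatic acinar enzymes, where 9 of 17 fell. Forestomach means of these were 226 ± 179 (SD, n = 3), 10.6 ± 7.0 and 96.3 ± 40.9. Cldn7 (4.2-fold), Clca1 (4.15-fold), a secreted goblet cell protein, and the potassium channel subunit gene Kcne3 (at least 3.98-fold) also rose. The call of Clca1 was lost without series 3 (adjusted p over its alternatives from 6.62e-04 to 0.0573). Gkn3 lost its call in the fit over 9 arrays, without junction array 1 or 3 or series 1 or 3 (adjusted p over its 20 alternatives from 0.00833 to 0.131).

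Tuft cell genes, those of rare chemosensory cells, were higher in 8 of 19 and lower in 1 (median 0.63). Rgs13 had a signal of 102, 85 and 195 in the corpus and 488, 487 and 670.1 in the junction, 4.26-fold higher (adjusted p = 0.00387). Dclk1, a tuft cell kinase gene, had 134, 142 and 181 in the corpus and 343, 384 and 360.2 in the junction, 2.31-fold higher (adjusted p = 0.00132). The leukotriene genes Alox5ap (2.47-fold) and Alox5 (2.65-fold), shared with white blood cells, also rose. Trpm5, the tuft cell cation channel, was not called (0.32, 95% interval -0.043 to 0.69) except when probe sets were averaged (difference 0.78, adjusted p over its alternatives from 0.020 to 0.427), nor were Avil (0.074, 95% interval -0.14 to 0.29) and the tuft cell factor Pou2f3 (-0.028, 95% interval -0.26 to 0.20), and Plcb2 fell 1.77-fold. Rgs13 is also a mast cell gene. Mast cell genes were higher in 2 of 14 (14.3%) and lower in 3 (21.4%), beside 12.2% and 12.1% of all genes. The mast cell protease gene Cpa3 was 2.04-fold higher and Kit 1.85-fold lower. Alox5 lost its call without corpus array 2 or junction array 2 or 3 or series 2 (adjusted p over its 20 alternatives from 0.00507 to 0.142). Plcb2 lost its call in the fit over 9 arrays, with the series as a block at adjusted p = 0.0827, without a filter, without corpus array 2 or 3 or junction array 2 or 3 or series 2 or 3 (adjusted p over its 19 alternatives from 0.0177 to 0.154).

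Immune genes were higher in the junction in 71 of 170 measured and lower in 8 (median 0.35). Of macrophage and dendritic cell genes, 19 of 29 were higher and 0 lower, with a median log2 difference of 0.63. Their summed signal was 7877 to 8969 in corpus, 15073 to 15877 in junction and 16365 to 20349 in forestomach arrays. The forestomach thus lay above the junction for this list. Neutrophil and eosinophil genes went the other way, with sums of 3731.5 to 6292.5 in the junction and 1626 to 2077 in the forestomach. Arg1, an arginase of macrophages that squamous cells can also express, had a signal of 18.5, 3.4 and 25 in the corpus and 821, 1028 and 1258 in the junction and was at least 29.5-fold higher (adjusted p = 1.48e-04). Chil3 (Ym1), of alternatively activated macrophages, had 24.8, 20.8 and 20.7 in the corpus and 629, 222 and 568 in the junction, at least 12.4-fold higher (adjusted p = 8.26e-04), and junction array 2 was the lowest of its zone. The adaptor gene Tyrobp (2.19-fold), the dendritic integrin gene Itgax (2.06-fold) and the pan-leukocyte gene Ptprc (1.52-fold) rose by less. Of class II and antigen processing genes 10 of 20 were higher and 0 lower, with a median log2 difference of 0.38. Cd74, the class II chaperone, had 1319, 1524 and 1467 in the corpus and 2764, 3165 and 2882 in the junction, 2.04-fold higher (adjusted p = 0.00102), and H2-Ab1 was 2.5-fold higher. Of T, NK and innate lymphoid genes, 3 of 8 were higher and 0 lower, with a median log2 difference of 0.53. B and plasma cell genes were higher in 3 of 12 (25%) and lower in 2 (16.7%). Interferon response genes rose in 0 of 28 and fell in 3 (10.7%), a share of falls near that of all genes. The shares of all genes were 12.2% higher and 12.1% lower. Ptprc lost its call without series 2 or 3, H2-Ab1 lost its call without series 3 (adjusted p over the alternatives of these genes from 3.08e-04 to 0.0621).

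Granulocyte and defence genes had the highest medians of the immune lists. Of neutrophil and eosinophil genes, 8 of 13 were higher and 0 lower, with a median log2 difference of 1.56. S100a9 had a signal of 19.7, 1.7 and 25.6 in the corpus and 1073, 1365 and 2084 in the junction and was at least 41.9-fold higher (adjusted p = 2.38e-04), beside 927, 1011 and 1309 in the forestomach. Its partner S100a8 had 12.6, 11.4 and 8.3 in the corpus and 161, 129 and 405 in the junction and was at least 5.87-fold higher. Both are made by neutrophils and by stressed squamous cells. Lactoferrin (Ltf), of neutrophil granules and glands, had 44.2, 78.6 and 142 in the corpus and 1093, 1641 and 1678 in the junction, 16.2-fold higher (adjusted p = 6.43e-04), beside 5.5, 81 and 74.5 in the forestomach. The neutrophil surface gene Cd177 was 3.96-fold higher. Stfa2l1, a stefin gene, was at least 22.9-fold higher, and Siglecf, of eosinophils and some tuft cells, 2.96-fold. Of antimicrobial genes, 16 of 21 were higher and 0 lower, with a median log2 difference of 2.01. The defensin gene Defb4 had 30.4, 28.5 and 22.1 in the corpus and 921, 1241 and 1526 in the junction and was at least 34.8-fold higher (adjusted p = 3.51e-05), beside 15.9, 509.6 and 576 in the forestomach. Defb1 was at least 15.6-fold higher and Bpifc at least 12.3-fold. Of chemokines, interleukins and their receptors, 17 of 34 were higher and 0 lower, with a median log2 difference of 0.52, led by epithelial members of the interleukin cluster on chromosome 2. Il1f6, an agonist, had 82.1, 35.7 and 41.6 in the corpus and 1629, 2592 and 2547 in the junction, 37-fold higher, and the antagonist genes Il1f5 and Il1rn were 29.7-fold and 8.3-fold higher. The call of Siglecf was lost without series 2 (adjusted p over its alternatives from 3.14e-04 to 0.0515). Fitted folds fell short of the bounds given, at 21.4-fold for Defb4 and 10.7-fold for Defb1, both with a pseudocount of 30.9. Il1f5 moved by more than 1.5 times in size, to 9.9-fold when probe sets were averaged.

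Lists of smooth muscle, fibroblasts, vessels and nerves had 118 measured genes, of which 14 were higher and 8 lower (median -0.05, near that of all genes). Of smooth muscle genes, 1 of 30 were higher and 0 lower, with a median log2 difference of -0.030, the riser being the heat shock gene Hspb8 (2.8-fold). None of the 9 skeletal muscle genes measured was called by limma. Of fibroblast and matrix genes, 9 of 35 were higher and 0 lower, with a median log2 difference of 0.34, with Thy1 2.2-fold, tenascin C (Tnc) 2.24-fold and collagen I (Col1a1) 1.52-fold higher. Vessel genes were higher in 3 of 27 and lower in 3 (11.1% each), near the shares of all genes (12.2% and 12.1%). Among those lower was Plvap (1.57-fold), of fenestrated capillaries. Of enteric neuron and glia genes, 1 of 26 were higher and 5 lower, with a median log2 difference of -0.37, with the neuropeptide gene Vip 1.56-fold lower. Adipocyte genes were higher in 3 of 14 and lower in 4, with lipoprotein lipase (Lpl) 2.07-fold lower. Tnc lost its call without series 1 or 3, Lpl and Thy1 lost their calls without series 2, Vip lost its call without series 2 or 3, Plvap lost its call without series 3 (adjusted p over the alternatives of these genes from 1.17e-04 to 0.112). Col1a1 lost its call in the fit over 9 arrays, without corpus array 1 or 3 or series 1, 2 or 3 (adjusted p over its 20 alternatives from 0.0014 to 0.101). Hspb8 moved by more than 1.5 times in size, to 1.8-fold when probe sets were averaged.

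Many mitochondrial and secretory genes were lower and nearly none higher. Of oxidative phosphorylation genes, 0 of 56 were higher and 18 lower, with a median log2 difference of -0.24. Sdha, the flavoprotein of succinate dehydrogenase, had a signal of 4649.9, 4486 and 4217 in the corpus and 2670.3, 2512 and 2504 in the junction, 1.73-fold lower (adjusted p = 0.00168). The largest fall on that list was Cox7a1 (2.02-fold). Of genes of the tricarboxylic acid cycle and fatty acid oxidation, 1 of 38 were higher and 20 lower, with a median log2 difference of -0.38. Acat1, which makes acetyl-CoA from ketone bodies, had 4153, 4260.0 and 4086 in the corpus and 2631, 2604 and 2450.4 in the junction, 1.62-fold lower (adjusted p = 0.00232), and Acadm was 1.68-fold lower. Of secretory pathway and folding genes, 0 of 42 were higher and 12 lower, with a median log2 difference of -0.23. Tmed6, a cargo receptor gene, had 7009, 6883 and 5938 in the corpus and 3486, 1975 and 2130.5 in the junction, 2.69-fold lower (adjusted p = 0.00549), Copz2 was 2.13-fold, Ero1b 2.1-fold and the folding enzyme gene Pdia2 1.9-fold lower. Of mucin-type glycosyltransferases, 2 of 36 were higher and 9 lower, with a median log2 difference of -0.23, with St3gal6 2.82-fold and Fut9 2.24-fold lower. Pdia2 lost its call in the fit over 9 arrays or without junction array 2 or series 2, Cox7a1, Ero1b and Fut9 lost their calls without series 2, Acadm and Tmed6 lost their calls without series 2 or 3 (adjusted p over the alternatives of these genes from 2.53e-05 to 0.221).

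Lipid, retinoid and detoxification genes held both directions. Of cholesterol and fatty acid synthesis genes, 12 of 33 were higher and 1 lower, with a median log2 difference of 0.27, led by Elovl6 (3.42-fold), which extends palmitate. Of retinoid genes, 13 of 26 were higher and 2 lower, with a median log2 difference of 0.48. Crabp2, which carries retinoic acid to its receptor, had a signal of 5.2, 5.6 and 8.1 in the corpus and 733, 1038 and 1164 in the junction and was at least 27.7-fold higher (adjusted p = 3.51e-05). The retinol dehydrogenase gene Rdh12 was at least 20.1-fold, Sdr16c5 at least 12.5-fold and Cyp26b1, which degrades retinoic acid, at least 3.14-fold higher. The members that fell were the carriers Ttr (1.92-fold) and Rbp4 (1.5-fold). Of detoxification enzymes, 13 of 55 were higher and 12 lower, with a median log2 difference of -0.080. Aox4, an aldehyde oxidase that can act on retinal, had 14.2, 1.4 and 1.4 in the corpus and 718, 1062 and 1124 in the junction and was at least 27.4-fold higher (adjusted p = 7.43e-05). Cyp2f2 was 33.2-fold and haem oxygenase (Hmox1) 6.75-fold higher, while the sulfotransferase gene Sult1d1 was 1.71-fold lower. Ttr lost its call in the fit over 9 arrays or without series 2 or 3, Cyp26b1 lost its call without series 3 (adjusted p over the alternatives of these genes from 3.58e-04 to 0.294). Rbp4 lost its call in the fit over 9 arrays, when all probe sets were tested, when probe sets were averaged, with a pseudocount of 1, with the series as a block at adjusted p = 0.069, without a filter, without corpus array 1, 2 or 3 or junction array 2 or 3 or series 1, 2 or 3 (adjusted p over its 20 alternatives from 0.0176 to 0.22).

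Of 205 measured signalling genes 58 were higher and 21 lower, and the pathways differed in their split. Of Wnt pathway genes, 15 of 47 were higher and 2 lower, with a median log2 difference of 0.22. The ligand gene Wnt10a had a signal of 9.8, 24 and 10.9 in the corpus and 181, 281 and 303 in the junction and was at least 7.19-fold higher (adjusted p = 2.96e-04), and Wnt4 had 150.0, 111 and 132 in the corpus and 529.8, 644 and 742 in the junction, 4.59-fold higher (adjusted p = 2.22e-04). The inhibitor genes Sfrp2 (11.9-fold) and Apcdd1 (5.11-fold) rose too, and Apcdd1 stood at 263, 333 and 334 in the forestomach, below all junction arrays. The Wnt target and stem cell receptor gene Lgr5 was not called (-0.26, 95% interval -0.60 to 0.073). Of Notch genes 8 of 29 were higher and 2 lower, with a median log2 difference of 0.12. The feedback gene Nrarp had 186, 121 and 159 in the corpus and 1017, 1098 and 1409 in the junction, 7.2-fold higher (adjusted p = 1.47e-04), the receptor genes Notch1 (2.15-fold) and Notch3 (1.84-fold) rose, and Notch4, of vessels, fell 1.85-fold. Of EGF family genes, 8 of 21 were higher and 2 lower, with a median log2 difference of 0.34. Epiregulin (Ereg), a ligand, had 70.9, 91.5 and 94.2 in the corpus and 548, 774 and 721 in the junction, 7.21-fold higher (adjusted p = 9.48e-05), and the ligand gene Hbegf was 2.03-fold higher. The feedback genes Lrig1 (1.83-fold) and Dusp6 (1.61-fold) fell. Hbegf lost its call in the fit over 9 arrays, Notch4 lost its call without series 1 or 3 (adjusted p over the alternatives of these genes from 3.87e-05 to 0.063). Dusp6 lost its call without corpus array 1 or 3 or junction array 2 or series 1, 2 or 3 (adjusted p over its 20 alternatives from 0.0022 to 0.116). Lrig1 lost its call when probe sets were averaged, without junction array 2 or series 2 or 3 (adjusted p over its 20 alternatives from 9.07e-04 to 0.131).

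Of FGF and IGF genes, 6 of 24 were higher and 5 lower, with a median log2 difference of 0.020. Fgfr2, the epithelial receptor, had a signal of 452, 370.4 and 323 in the corpus and 818, 915 and 871 in the junction, 2.26-fold higher (adjusted p = 0.00187), and Igf1 was 2.25-fold higher. Fgf18 had 90.3, 98.2 and 69.8 in the corpus and 34.9, 29.1 and 32.7 in the junction, 2.27-fold lower (adjusted p = 0.00183), and the co-receptor gene Klb was 2.97-fold lower. Of BMP and TGF-beta genes, 6 of 44 were higher (13.6%) and 8 lower (18.2%), with a median log2 difference of 0.060. The shares of all genes were 12.2% higher and 12.1% lower. The ligand gene Bmp7 was 2.56-fold higher, the receptor gene Bmpr1b 2.25-fold and the secreted antagonist gene Sostdc1 2.43-fold lower. Hedgehog genes were higher in 2 of 16 (12.5%) and lower in 1 (6.25%), the latter Hhip (1.73-fold). The call of Bmpr1b was lost without series 2 (adjusted p over its alternatives from 3.08e-04 to 0.0645). Hhip lost its call in the fit over 9 arrays, without corpus array 2 or junction array 2 or series 2 or 3 (adjusted p over its 20 alternatives from 0.00492 to 0.139). Klb lost its call without a filter, without corpus array 1 or 3 or junction array 2 or 3 or series 2 or 3 (adjusted p over its 19 alternatives from 0.0031 to 0.196). Sostdc1 lost its call without corpus array 1 or 2 or junction array 2 or series 2 (adjusted p over its 20 alternatives from 0.00331 to 0.155).

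Of stem and progenitor markers, 10 of 32 were higher and 6 lower, with a median log2 difference of 0.080. Cd44, an adhesion receptor of squamous and gastric progenitors, had a signal of 260.5, 268 and 269 in the corpus and 1819, 2522 and 2692 in the junction, 8.42-fold higher (adjusted p = 6.52e-05). Sox9 was not called (-0.35, 95% interval -0.75 to 0.050). Of cell cycle genes, 4 of 48 were higher and 4 lower (8.33% each), with a median log2 difference of 0.15. Both shares were below those of all genes (12.2% and 12.1%). Mki67, a marker of dividing cells, was not called (0.20, 95% interval -0.23 to 0.62). The inhibitor gene Cdkn2b was 2.1-fold lower. Of immediate early genes, 15 of 32 were higher and 0 lower, with a median log2 difference of 0.28. Egr3 had 29.2, 6.6 and 16.3 in the corpus and 411, 288 and 336 in the junction and was at least 9.87-fold higher, Egr1 was 2.53-fold and the heat shock gene Hspa1b 2.55-fold higher. Egr1 lost its call in the fit over 9 arrays, Hspa1b lost its call without series 1, Cdkn2b lost its call without series 2 (adjusted p over the alternatives of these genes from 6.49e-06 to 0.0699).

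Ion and solute transport was exchanged in part. Of potassium, chloride and sodium channels, 9 of 40 were higher and 7 lower, with a median log2 difference of -0.020, with the squamous gene Clca2 at least 5.3-fold higher and Kcnj13 2.03-fold lower. Of aquaporins and carbonic anhydrases, 6 of 18 were higher and 5 lower, with a median log2 difference of 0.010, with Car12 13.6-fold higher and Car9 1.86-fold lower. Of solute carriers, 8 of 40 were higher and 18 lower, with a median log2 difference of -0.27. The nucleoside transporter gene Slc28a3 was at least 5.7-fold higher, the glucose transporter gene Slc5a1 5.6-fold and the amino acid transporter gene Slc6a14 at least 2.39-fold. Slc7a8, another amino acid transporter gene, was 2.77-fold and the fructose transporter gene Slc2a5 2.2-fold lower. Slc7a8 lost its call without series 2, Car9 and Slc2a5 lost their calls without series 2 or 3 (adjusted p over the alternatives of these genes from 3.24e-04 to 0.115). Kcnj13 lost its call without corpus array 1 or 2 or junction array 2 or 3 or series 2 or 3 (adjusted p over its 20 alternatives from 0.00257 to 0.159). Car12 moved by more than 1.5 times in size, to 6.87-fold when probe sets were averaged.

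**Figure D5:**
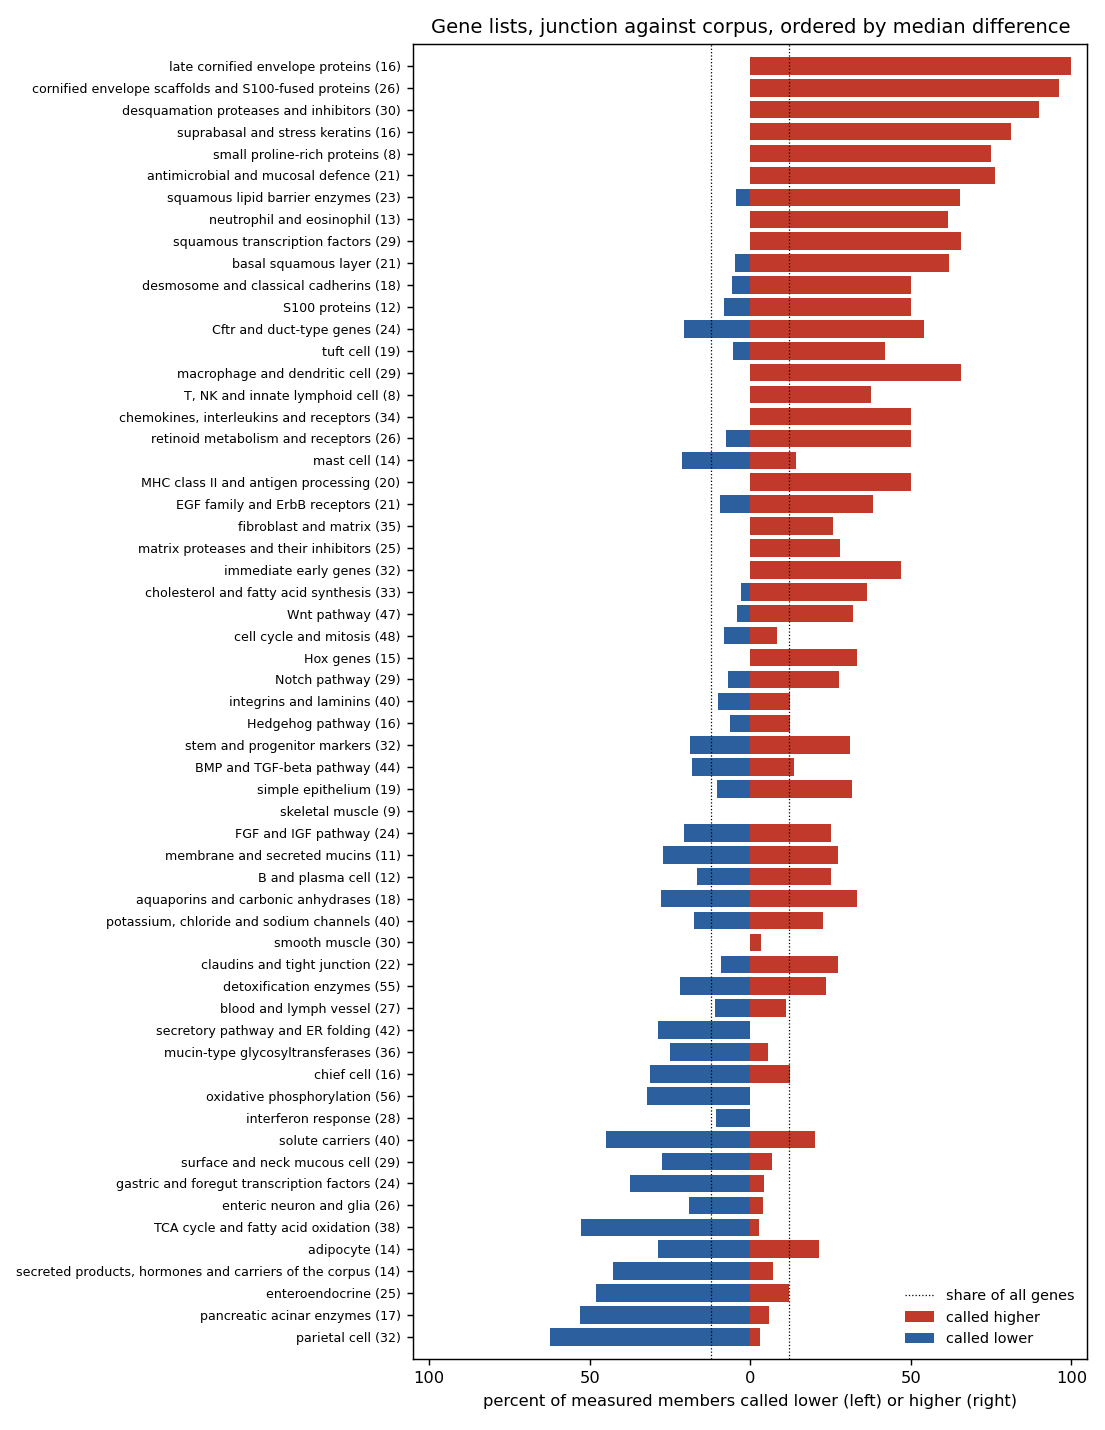
Share of the measured members (number in brackets) of each gene list with at least 8 of them that was called higher (red, right) or lower (blue, left) in the junction, ordered by median difference, with dotted lines at the shares of all genes (12.2% and 12.1%). Squamous lists stand at the top, with all 16 late cornified envelope genes higher, and the parietal cell list at the bottom, with 20 of 32 lower.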

How the data were processed

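Total RNA of 3 corpus and 3 junction pools was hybridised to Affymetrix mouse arrays. The authors deposited 1 linear intensity (signal) per probe set and array, made with MAS5 per the submitters' processing notes. Its version is not given in the sources used here. The trimmed mean of every deposited array was 200.0. Scanner files were not used here, and arrays have no read depth: their number limits the precision. Signals were taken as log2(signal + 9.8), where 9.8 is the 20th percentile of an array's signals, taken as the median of all 9. Probe sets with 1 gene symbol were kept when above the 40th percentile of their array on at least 3 of the 6 arrays, 23568 in all. A gene was its kept probe set of highest mean, and 6088 of the 13088 genes had more than 1.

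The zones were compared with limma 3.58.1 in R 4.3.3 (lmFit and eBayes, 4 residual degrees of freedom, no covariate), with Benjamini-Hochberg adjustment over all 13088 genes and a threshold of 0.05. The fit was tested on simulated data. Same-numbered arrays come from the same mice, per the series' design text, and their deviations correlated at 0.035, 0.084 and 0.138 across genes, against -0.12 to 0.04 for arrays of different series. Figures were drawn with matplotlib 3.10.9 in Python 3.11.15.

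Named genes are the 25 largest rises and falls without overlap of arrays, passing over predicted genes and clones, up to 5 called members per list and direction with the largest difference, and a set of known genes taken whatever their values, from which the text gives a selection. Of that set, Lipf, Gast and Cdx2 lay below the filter. The comparison, the 61 lists and the rule were chosen with earlier results of these data known. The alternatives were other pseudocounts, filters, normalizations, summaries of probe sets and fits, a block for the series, and leaving out arrays or series.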

Additional observations from a re-analysis of the deposited data

Results flagged for a closer look

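Probe sets without a gene symbol took no part in the comparison. Of 3544 such probe sets above the filter level, 69 were called higher in the junction by 2-fold or more with all junction arrays above all corpus arrays. Of the 13088 measured genes, 710 (5.42%) were called higher by 2-fold or more, counted without that condition on arrays. Each measured gene was also represented by its kept probe set of highest mean. Because the counts rest on different conditions, they do not decide whether the share differed among probe sets without a symbol. Where the probe sets without a symbol map was not examined.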

How the results depend on the processing

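The count of genes higher stayed within 1.5 times of 1602 in all alternatives but those without series 2 or series 3, and lay between 692 and 1500 in fits that omit an array or a series. The count of genes lower was 982 without a filter on low signals and 2519 when all 23568 probe sets were tested, and between 208 and 1617 in fits that omit one. These last fits have fewer arrays. The count of genes changed by 2-fold or more stayed within 1.5 times of 906 in all of them. With the series as a block, which pairs arrays of the same mice, 1492 genes were higher and 1405 lower, and 21 of the 355 calls of named genes were lost. Of those 355 calls, 168 held in all alternatives, while 61, 156 and 144 were lost without series 1, 2 and 3. After median centring 38.8% of calls were higher, against 50.4%. Log2 differences changed sign in 12 named genes, of which Dst and Sufu had been called: Acta2 (-0.14 after quantile normalization, -0.002 after median centring, -0.052 to 0.20 in fits that omit arrays), Chia1 (-0.094 after quantile normalization, -0.094 to 0.19 in fits that omit arrays), Creb3l4 (-0.17 to 0.031 in fits that omit arrays), Dst (1.97 when probe sets were averaged), Gkn1 (-0.11 after quantile normalization, -0.066 after median centring, -0.25 to 0.18 in fits that omit arrays), Hip1r (-0.012 when probe sets were averaged, -0.006 to 0.12 in fits that omit arrays), Krt19 (-0.071 after quantile normalization), Nrep (-0.016 after median centring, -0.004 to 0.12 in fits that omit arrays), Ocln (-0.14 to 0.019 in fits that omit arrays), Pou2f3 (0.076 after quantile normalization, -0.091 to 0.047 in fits that omit arrays), Sufu (-0.088 when probe sets were averaged), Tff1 (-0.085 to 0.44 in fits that omit arrays). MAS5 signals of dim genes are imprecise, which limits their folds.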

Other observations

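Of integrin and laminin genes, 5 of 40 were higher and 4 lower, with a median log2 difference of 0.12, shares near those of all genes (12.2% and 12.1%). Of matrix proteases and inhibitors, 7 of 25 were higher and 0 lower, with a median log2 difference of 0.31. Mmp12, the macrophage elastase, had a signal of 5.4, 23.5 and 47.1 in the corpus and 81.5, 86 and 67.4 in the junction and was 2.86-fold higher by limma (adjusted p = 0.0467), with each junction array above each corpus array. The protease inhibitor gene Timp1 was 1.8-fold higher. Of S100 genes, 6 of 12 were higher and 1 lower, with a median log2 difference of 0.79, the faller being S100a5 (1.67-fold). Membrane and secreted mucins were higher in 3 of 11 and lower in 3, among them Muc16, 1.37-fold higher. Of simple epithelium genes, 6 of 19 were higher and 2 lower, with a median log2 difference of 0.060. The call of Timp1 was lost without series 3 (adjusted p over its alternatives from 0.00319 to 0.0632). Mmp12 lost its call when all probe sets were tested, with a pseudocount of 1, with the series as a block at adjusted p = 0.0665, without a filter, without corpus array 2 or junction array 1, 2 or 3 or series 1 or 2 (adjusted p over its 19 alternatives from 0.0162 to 0.214). Muc16 lost its call after median centring, when all probe sets were tested, with a pseudocount of 30.9, with the series as a block at adjusted p = 0.053, with the trend and robust options, without a filter, without corpus array 1, 2 or 3 or junction array 1 or 3 or series 1, 2 or 3 (adjusted p over its 19 alternatives from 0.020 to 0.219). S100a5 lost its call after quantile normalization, in the fit over 9 arrays, without a filter, without corpus array 2 or 3 or junction array 2 or series 2 or 3 (adjusted p over its 19 alternatives from 0.0141 to 0.158).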
